A study of Mus musculus with 6 samples.

Results

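The insulin-like growth factor (IGF) system and the non-coding RNA H19 were followed in mouse cultures of cortical neurons given α-synuclein fibrils. The 10 genes were chosen by symbol from the 24411 in the table: the ligands Igf1 and Igf2, the receptors Igf1r and Igf2r, the binding proteins Igfbp2, Igfbp3, Igfbp4, Igfbp5 and Igfbp7, and H19, the imprinted neighbour of Igf2. They were chosen with the difference between these groups already known, so the normalised counts, fold changes and calls below describe them and support nothing further. All 10 had enough counts to be tested.

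Cultures were made from the cortex of embryos at day 18, and the labels give no strain, transgene or allele. One group of 3 libraries, labelled PFF, received preformed fibrils of mouse α-synuclein at 3.45 µM on day 10 in vitro, and the other 3, titled as vehicle-treated and given PBS (phosphate-buffered saline) as their treatment label, are called PBS here. RNA was extracted 8 days later, on day 18. Nothing in the labels says that the libraries came from separate cultures, so the spread behind each p-value may be technical only. In bulk RNA, fewer cells of a type and less RNA per cell cannot be told apart.

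IGF1 and IGF2 are secreted ligands that activate the tyrosine kinase receptor IGF1R and, through it, the PI3K, AKT and mTOR pathway. IGF2R has no kinase and removes IGF2 from the cell surface, and the binding proteins hold the ligands outside the cell. Igf2 and H19 lie side by side and share enhancers, and in most tissues Igf2 is transcribed from the paternal and H19 from the maternal copy. In brain, Igf2 is known from the meninges and choroid plexus, and Igf1 from microglia and some neurons.

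H19 and Igf2 each contain a microRNA. MiR-675 lies in an exon of H19, on the minus strand of chromosome 7 from 142577064 to 142577147, and miR-483 in an intron of Igf2, from 142654924 to 142654996 (GRCm38.p6, the assembly of mm10). Their mature sequences from RefSeq are shown because H19 is the gene with the lowest fold change of the 10, with the seed (bases 2 to 8) in capitals.
miR-675-5p: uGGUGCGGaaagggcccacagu
miR-675-3p: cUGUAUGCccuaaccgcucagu
miR-483-5p: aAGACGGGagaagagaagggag
miR-483-3p: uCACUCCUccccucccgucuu
No seed is shared among the 4. The table has a row for each microRNA gene, Mir675 and Mir483, with 0 counts in all 6 libraries, which allows up to 3 counts in a library and says nothing of the processed microRNAs.

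Library totals ran from 9224963 to 10742381 counts. Replicate 3 of both groups stood apart from replicates 1 and 2 (second principal component 14.5 and 18.0, against −13.1 to −2.53), so values without it are given where they differ. Summed neuron markers ran from 4389 to 5138 CPM (counts per 1000000) and summed astrocyte markers from 3529 to 4771 CPM. Such sums are over different genes without scaling for length, so they do not compare the amounts of the cell types. All 10 neuron markers and all 8 astrocyte markers were measured, and markers of microglia, oligodendrocyte lineage and fibroblasts were present too, so the libraries labelled as neurons held transcripts of these other types as well.

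Of the 10 genes, Igf1 rose, H19 and Igfbp3 fell, and the other 7 did not pass an adjusted p under 0.05. The test was edgeR's quasi-likelihood F-test over 13919 genes, in which 6.58% of all genes passed, 3.98% higher and 2.60% lower in PFF. All 3 PFF libraries lay on one side of all 3 PBS libraries for 4 of the 10, Igf1 and Igf2r higher and H19 and Igfbp3 lower, and for 25.0% of all tested genes (13.4% higher and 11.6% lower). The median log2 fold change of the 10 was −0.16, and that of all tested genes was −0.00056.

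**Figure D1:**
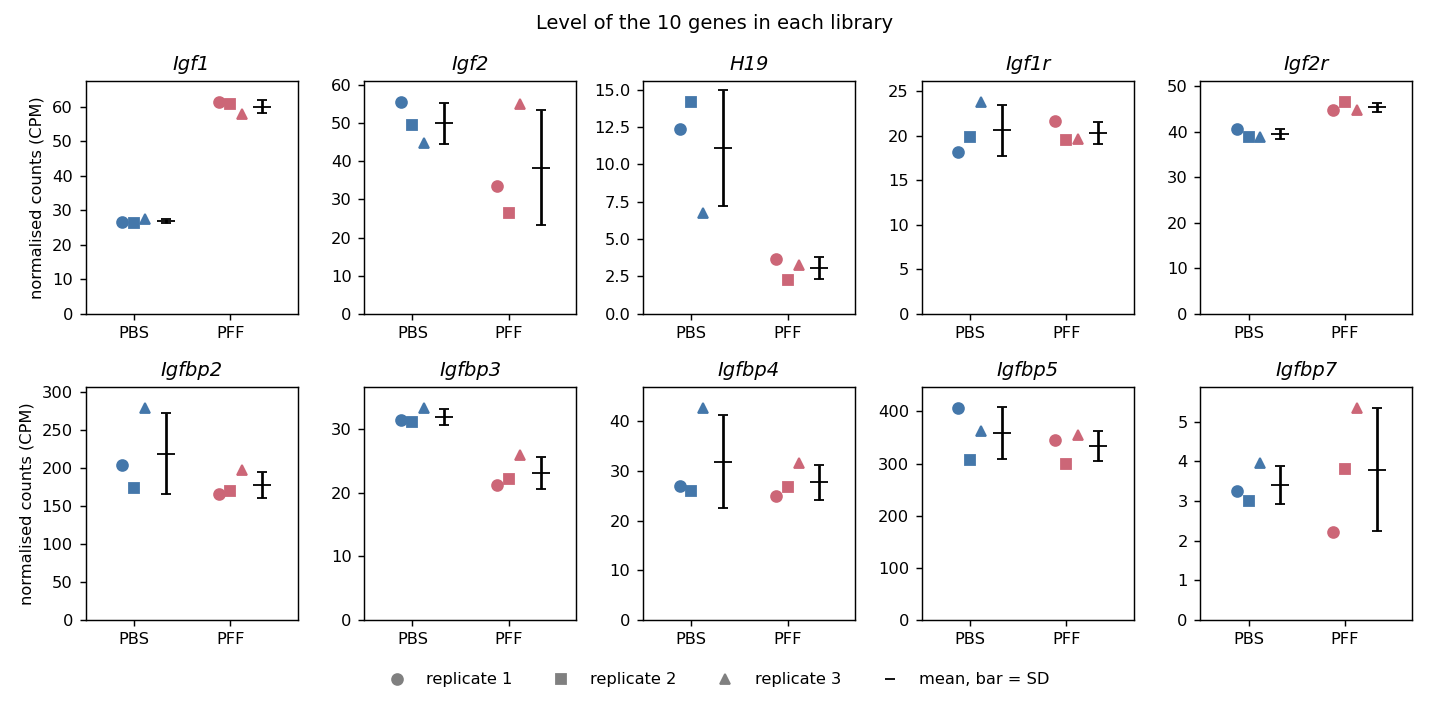
Normalised counts (CPM) of each of the 10 genes, with a point per library (shape gives the replicate number) and the mean with SD (n = 3 per group) beside it. Igf1 is higher and H19 lower in all 3 PFF libraries than in any PBS library, while Igf2 is low in PFF 1 and 2 but at 55.2 CPM in PFF 3.

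Igf1, on chromosome 10 from 87858265 to 87937042 (GENCODE vM21, GRCm38, here and below), is a ligand and the only gene of the 10 that rose. It stood at 26.5, 26.4 and 27.4 CPM in PBS 1, 2 and 3 and at 61.3, 60.9 and 57.8 CPM in PFF 1, 2 and 3. These were 245, 272 and 285 counts in PBS 1, 2 and 3 and 636, 622 and 585 counts in PFF 1, 2 and 3. The groups were far apart: 26.8 ± 0.557 CPM in PBS and 60.0 ± 1.90 CPM in PFF (mean ± SD, n = 3). The spread within each group was small for counts of this size and is not taken as a trait of Igf1. The log2 fold change was 1.16 ± 0.08 (SE), 2.24-fold, with an adjusted p of 2.70e-06 in edgeR and rank 243 from the top among 13919 genes. Between the replicate 3 libraries alone the ratio was 2.11, and without replicate 3 the log2 fold change was 1.21 ± 0.09.

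Microglia markers rose between the groups, as Igf1 did. Of the 9 tested, 8 rose and none fell, with a median log2 fold change of 1.26. Their summed level was 165, 100 and 139 CPM in PBS 1, 2 and 3, and 319, 315 and 391 CPM in PFF 1, 2 and 3. Igf1 did not vary between PBS libraries as this sum did. Among the PFF libraries it was lowest in PFF 3, where the sum was highest, but by little (57.8 CPM, against 61.3 and 60.9). Differences of Igf1 within a group were not tested against counting error. None of the list was at 0 in all libraries, but the homeostatic markers P2ry12 and Tmem119 were low, at 0.674 to 1.41 CPM and 0.192 to 0.587 CPM. The part of microglia in the Igf1 rise was not tested.

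Igf2, the second ligand, on chromosome 7 from 142650766 to 142666816 on the minus strand, did not pass. It stood at 55.6, 49.5 and 44.9 CPM in PBS 1, 2 and 3, and at 33.6, 26.3 and 55.2 CPM in PFF 1, 2 and 3. PFF 1 and 2 lay below every PBS library, and PFF 3 lay inside the PBS range. The log2 fold change was −0.38 ± 0.22 (adjusted p = 0.366 in edgeR). Without PFF 3 it was −0.73 ± 0.12 (adjusted p = 0.000696 in edgeR), without PFF 2 it was −0.17 ± 0.17, and with replicates 1 and 2 only it was −0.80 ± 0.11 (adjusted p = 1.81e-05). Between the replicate 3 libraries the ratio of PFF to PBS was 1.23. A second gene model on the same strand, Gm49394, shares 62.8% of the exonic bases of Igf2 and has no row in the table, so reads of that model may be counted under Igf2.

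The summed fibroblast and meninges markers were lowest in PFF 1 and 2, as Igf2 was. Their level was 61.1, 51.7 and 62.7 CPM in PBS 1, 2 and 3, and 39.4, 27.9 and 65.9 CPM in PFF 1, 2 and 3. None of the 7 tested passed (median −0.45). Their log2 fold changes ran from −0.96 for Foxc1, −0.78 for Lum and −0.58 for Col1a2 to −0.19 for Col1a1 and 0.21 for Ogn. Ogn was highest in PFF 1. Markers of choroid plexus summed to 4.15 to 5.78 CPM, with Ttr at 0.989 to 2.38 CPM. The part of these cells in the Igf2 values was not tested.

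H19 is annotated as a lincRNA, a non-coding transcript between genes, on the minus strand of chromosome 7 from 142575529 to 142578143. It fell: it had 114, 146 and 70 counts in PBS 1, 2 and 3 (12.3, 14.2 and 6.74 CPM), and 38, 23 and 33 counts in PFF 1, 2 and 3 (3.66, 2.25 and 3.26 CPM). PBS 3 was the lowest PBS library and still above every PFF library. The log2 fold change of −1.85 ± 0.28 was the 8th lowest of 13919, with an adjusted p of 0.00123 in edgeR, and H19 was at 0.278 of its PBS level. Without PBS 3 it was −2.11 ± 0.20 and without PBS 2 it was −1.63 ± 0.27, and it passed in each case. Between the replicate 3 libraries the ratio was 0.484.

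Markers of other cell types are given beside the fall of H19. Neural progenitor markers summed to 221 to 236 CPM in PBS and 175 to 202 CPM in PFF, with 2 of 6 tested lower and none higher. Pericyte and smooth muscle markers summed to 51.4 to 71.9 CPM in PBS and 45.6 to 55.4 CPM in PFF, with overlap, 1 of 5 lower and Kcnj8 and Abcc9 at 0 in all libraries. Of the 10 oligodendrocyte lineage markers 4 rose and 6 fell. Unlike Igf2 and the fibroblast markers, H19 was low in PFF 3. The part of these cells in the fall of H19 was not tested.

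**Figure D2:**
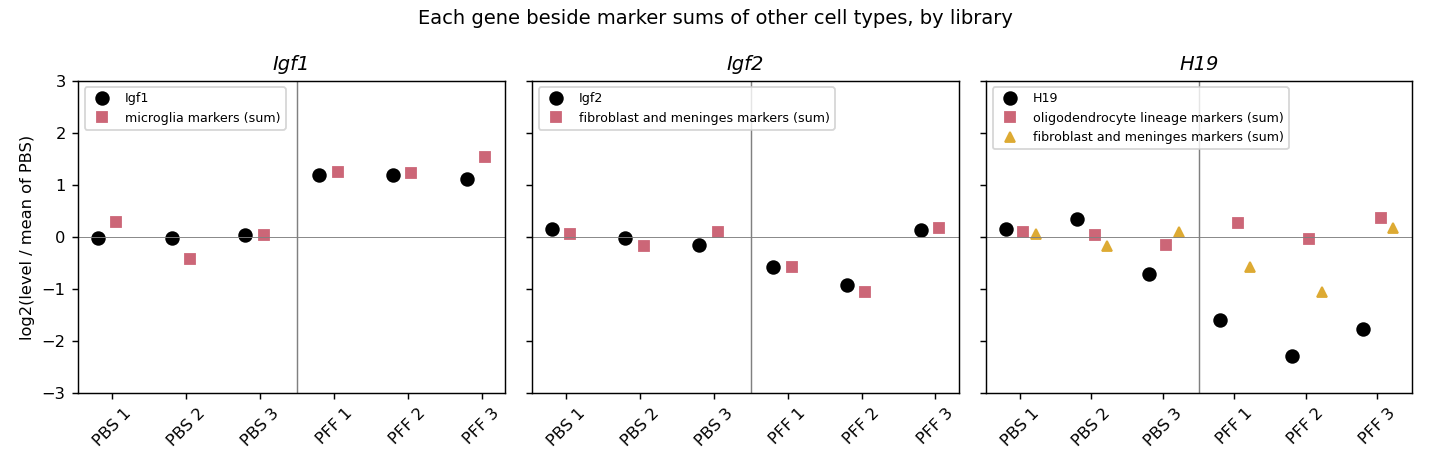
Level of Igf1, Igf2 and H19 in each library (black) and summed level of marker lists of other cell types (coloured), each as log2 of its ratio to the mean of the 3 PBS libraries. PFF 3 stands at the PBS level for Igf2 and for the fibroblast and meninges markers, but not for H19, which is at 3.26 CPM there.

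The ratio of Igf2 to H19 per kilobase of exon differed between the groups. In PFF 1 and 2 both genes were below every PBS library, and in PFF 3 only H19 was. Igf2 exceeded H19 by 1.93, 1.50 and 2.87 times in PBS 1, 2 and 3, and by 3.95, 5.03 and 7.27 times in PFF 1, 2 and 3, without overlap. The ratio of Igf2 to Igf1 on the same scale was 3.62, 3.24 and 2.84 in PBS, and 0.950, 0.748 and 1.65 in PFF. Igf2 was thus the more abundant ligand in every PBS library, while PFF 1 and 2 had slightly more Igf1 and PFF 3 more Igf2. These ratios use all annotated exons of a gene, and long untranslated exons that a culture does not use would lower a gene's level.

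Around Igf2 and H19, within 200000 bases of either gene, 14 of the 22 annotated genes have a row in the table and 5 had enough counts to be tested. Ctsd, which encodes the lysosomal protease cathepsin D and starts 190105 bases from the H19 start, rose from 694 ± 114 to 1419 ± 187 CPM (1.03 ± 0.12). Mrpl23, a mitochondrial ribosomal protein gene between Ctsd and H19, stood at 27.4 ± 2.89 and 23.8 ± 4.39 CPM (−0.20 ± 0.13) and did not pass. Neither did Lsp1, a leukocyte actin-binding protein gene, at 3.11 ± 0.987 and 2.83 ± 0.368 CPM. The insulin gene Ins2 had 1 count in 1 library, the antisense gene Igf2os at most 2 counts and Nctc1, the non-coding neighbour of H19, at most 1.

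**Figure D3:**
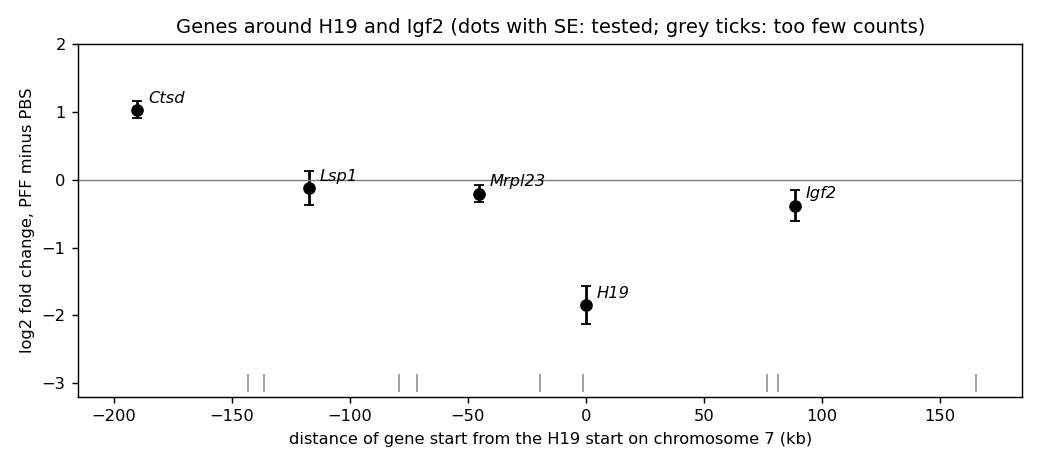
Log2 fold change with SE of the 5 tested genes around H19 and Igf2 against the distance of each gene's start from the H19 start, in kilobases; grey ticks mark genes with too few counts. H19 is the lowest point at −1.85, Ctsd the highest at 1.03, and Igf2, Mrpl23 and Lsp1 lie between −0.38 and −0.12.

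The receptors showed small differences. Igf1r, the signalling receptor for both ligands, on chromosome 7 from 67952827 to 68233668, stood at 18.2, 19.9 and 23.8 CPM in PBS and at 21.7, 19.5 and 19.7 CPM in PFF. The groups overlapped, with a log2 fold change of −0.03 ± 0.12 whose sign turned in 4 alternatives (0.0021 to 0.12). Igf2r, the clearance receptor, which also carries mannose 6-phosphate-tagged enzymes to lysosomes, lies on chromosome 17 from 12682406 to 12769664. It stood at 40.7, 38.7 and 38.9 CPM in PBS and at 44.7, 46.5 and 44.8 CPM in PFF. All PFF libraries were above all PBS libraries, but the log2 fold change of 0.20 ± 0.08 did not pass over all genes (adjusted p = 0.166 in edgeR). Airn, the imprinted antisense transcript of the Igf2r locus, had 8 to 18 counts per library and did not pass (−0.33 ± 0.38).

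Among the binding proteins only Igfbp3 passed. Igfbp3, on chromosome 11 from 7206086 to 7213923, carries IGFs in serum and tissue fluid. It stood at 31.4, 31.1 and 33.3 CPM in PBS and at 21.2, 22.2 and 26.0 CPM in PFF. Every PFF library was below every PBS library, with a log2 fold change of −0.46 ± 0.10 (adjusted p = 0.0126 in edgeR) and a ratio of 0.781 between the replicate 3 libraries. The call was lost without PFF 1 (−0.41 ± 0.11, adjusted p = 0.0617 in edgeR) and without PFF 2 (−0.44 ± 0.12, adjusted p = 0.0814).

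Igfbp2 and Igfbp4 had nearly the same profile over the 6 libraries, the closest of the 45 pairs among the 10 genes (root-mean-square difference of 0.0905 in mean-centred log2 CPM). Igfbp2, on chromosome 1 from 72824503 to 72852474, stood at 204, 174 and 279 CPM in PBS and at 166, 170 and 197 CPM in PFF. Igfbp4, on chromosome 11 from 99041244 to 99054392, stood at 27.0, 26.0 and 42.6 CPM in PBS and at 24.9, 26.7 and 31.6 CPM in PFF. For both genes PBS 3 was the highest library of all and PFF 3 the highest of its group, and the groups overlapped. Summed astrocyte markers were 4328, 3644 and 4771 CPM in PBS and 3529, 3575 and 4535 CPM in PFF, in the same order within each group as Igfbp2. Of the 8, 3 fell and none rose, and their part in the Igfbp2 and Igfbp4 values was not tested.

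The log2 fold change was −0.30 ± 0.15 for Igfbp2 (adjusted p = 0.256 in edgeR) and −0.20 ± 0.17 for Igfbp4 (adjusted p = 0.550). Without PBS 3 these were −0.09 ± 0.10 and 0.07 ± 0.12, so the sign of Igfbp4 turned. With replicate 3 as a batch term Igfbp2 passed (−0.29 ± 0.08, adjusted p = 0.0181 in edgeR), as it did with a block on the replicate number (−0.28 ± 0.08, adjusted p = 0.0230).

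Igfbp5, which binds to extracellular matrix as well as to IGFs and neighbours Igfbp2 on chromosome 1, from 72857932 to 72874884, had the most counts of the 10. It stood at 406, 307 and 362 CPM in PBS and at 344, 300 and 354 CPM in PFF. The groups overlapped and PFF 2 and PBS 2 were the lowest of their groups (−0.11 ± 0.10). Igfbp7, a related secreted protein with low affinity for IGFs, on chromosome 5 from 77349240 to 77408041, had the fewest counts of the 10 in PBS. Over both groups it had 23 to 54 counts per library. In PFF the mean of H19 was lower, at 3.06 CPM against 3.79 CPM for Igfbp7. Igfbp7 stood at 3.25, 3.01 and 3.95 CPM in PBS and at 2.22, 3.82 and 5.34 CPM in PFF. Its log2 fold change of 0.15 ± 0.28 had the opposite sign without PFF 3 (−0.18 ± 0.28).

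**Figure D4:**
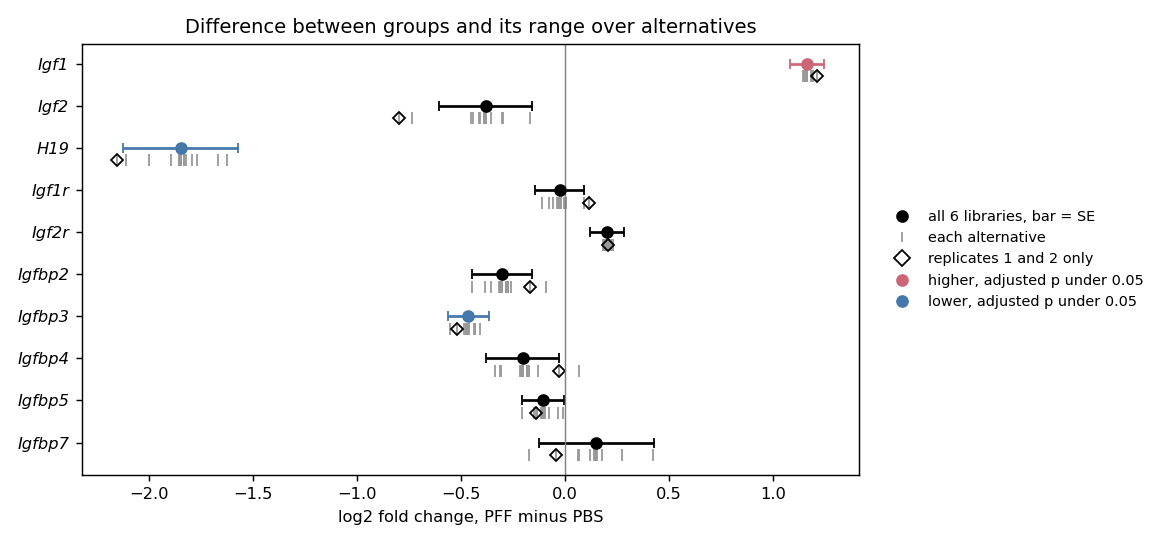
Log2 fold change of PFF against PBS for each gene with its SE (dots, coloured where the adjusted p was under 0.05), the values under each alternative (ticks) and with replicates 1 and 2 only (diamonds). Igf1 stays between 1.15 and 1.21 and H19 between −2.15 and −1.63, while Igf2 runs from −0.80 to −0.17 and the ticks of Igf1r, Igfbp4 and Igfbp7 lie on both sides of 0.

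On the scale of CPM per kilobase of exon, Igfbp2 (119 ± 29.1) and Igfbp5 (59.6 ± 8.25) led the order of levels in PBS. Igfbp3 (10.2 ± 0.384), Igf2 (8.74 ± 0.930), Igfbp4 (7.22 ± 2.11), H19 (4.51 ± 1.58) and Igf2r (4.24 ± 0.118) followed. Igfbp7 (2.81 ± 0.402), Igf1 (2.70 ± 0.0563) and Igf1r (1.23 ± 0.170) came last. Neighbours in this order that overlapped within 1 SD of each mean were Igf2 and Igfbp4, Igfbp4 and H19, H19 and Igf2r, and Igfbp7 and Igf1. In PFF the means of the first 5 kept their order, but Igfbp3 (7.39 ± 0.807), Igf2 (6.71 ± 2.62) and Igfbp4 (6.28 ± 0.792) overlapped within 1 SD. Igf1 (6.06 ± 0.192) stood next after Igfbp4, within the SD of Igfbp4, and H19 (1.24 ± 0.296) stood beside Igf1r (1.21 ± 0.0727). The 5 binding proteins together summed to 199 ± 35.5 in PBS and 168 ± 14.9 in PFF, of which Igfbp2 made up 59.4 ± 4.35% and 57.1 ± 1.30%.

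RefSeq's promoter table (GRCm38.p6) held 13 windows for 9 of the 10 genes, all but H19. The 250 bases before each start were searched on both strands for TATAAA, for GGGCGG, the core of the Sp1 site, and for TGANTCA, an AP-1-type site. GGGCGG was in 6 of the 13 windows and 32.7% of 32817 windows of all genes, TGANTCA in 2 and 6.75%, and TATAAA in 1 and 12.4%. The windows of Igfbp3, the binding protein that fell, and of the innermost start of Igf2 (the most downstream one) are printed because Igfbp3 and Igf2 carry results above. Neither window overlaps an annotated exon of its gene, which holds for 8 of the 13 windows, and the other Igf2 window without exon bases had none of the motifs. Capitals mark GGGCGG, and no 2 of the motifs overlap in them.
Igfbp3 promoter, chr11:7213924-7214173, minus strand: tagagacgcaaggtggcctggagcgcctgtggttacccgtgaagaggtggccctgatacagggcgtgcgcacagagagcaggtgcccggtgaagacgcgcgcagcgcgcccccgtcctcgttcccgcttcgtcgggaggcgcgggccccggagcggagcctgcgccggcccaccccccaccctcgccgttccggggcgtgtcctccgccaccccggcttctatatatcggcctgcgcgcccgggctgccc
Igf2 promoter, chr7:142657497-142657746, minus strand: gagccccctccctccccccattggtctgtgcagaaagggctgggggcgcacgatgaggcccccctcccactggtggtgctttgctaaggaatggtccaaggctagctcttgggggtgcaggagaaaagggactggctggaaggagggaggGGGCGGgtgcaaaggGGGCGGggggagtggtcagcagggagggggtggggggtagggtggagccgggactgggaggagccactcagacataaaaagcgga
The Igfbp3 window holds 32 CpG and 73.2% G and C with none of the 3 motifs, and the Igf2 window 6 CpG and 66.0% G and C with GGGCGG at positions −100 and −85 from the start. The median over all windows was 6 CpG and 52.4% G and C. Counts were per gene, so they do not say which of the 4 starts of Igf2 was used.

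Beyond the 10, a list of 46 further genes of the IGF and insulin pathway was examined, of which 38 were tested. One rose and 2 fell (7.89% called, against 6.58% of all genes), with a median log2 fold change of 0.02. Irs2, a docking protein of the insulin and IGF receptors, rose from 33.4 ± 2.67 to 44.3 ± 4.41 CPM (0.41 ± 0.10, adjusted p = 0.0258 in edgeR). The kinase gene Akt2 fell from 118 ± 8.57 to 92.1 ± 1.64 CPM (−0.36 ± 0.08, adjusted p = 0.0110 in edgeR). Eif4ebp1, an inhibitor of translation that mTORC1 switches off, fell from 14.0 ± 2.75 to 9.32 ± 1.00 CPM (−0.59 ± 0.16, adjusted p = 0.0422 in edgeR). For these 3 genes the PFF and PBS libraries did not overlap, which held for 25.0% of all tested genes. It also held for Grb2, Mtor, Gab1, Pappa2 and Igfbpl1 of the list, which were not called.

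The log2 fold changes of these 3 genes kept their sign with each library left out, from 0.35 to 0.48 for Irs2, −0.42 to −0.31 for Akt2 and −0.73 to −0.44 for Eif4ebp1, but not all calls held. Without PBS 1 or without PFF 2 none of the 38 genes passed, without PBS 3 or PFF 1 only Akt2 did, and Eif4ebp1 also missed the threshold in limma-voom (adjusted p = 0.0532) and with the stricter count filter (adjusted p = 0.0513). By role, no insulin ligand was tested, since Ins1 and Ins2 had at most 1 count. The insulin receptor Insr (−0.08 ± 0.09) did not pass, nor did any of the 4 tested proteases of the binding proteins and their inhibitors (−0.59 to 0.04), of the 4 FOXO factors (−0.13 to 0.05) or of the 2 tested Igf2 mRNA-binding proteins. The fourth gene by smallest p, Igfbpl1, stood at 7.15 ± 0.124 and 8.80 ± 1.20 CPM and did not pass.

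A list of 32 other imprinted genes was examined beside Igf2 and H19, of which 28 were tested. Only Peg10, a retrotransposon-derived gene, passed (3.57% called, against 6.58% of all genes), from 67.9 ± 6.08 to 91.2 ± 15.9 CPM (0.43 ± 0.12, adjusted p = 0.0435 in edgeR). PFF 3 at 73.2 CPM overlapped PBS 2 at 74.7 CPM, and the call was lost without PBS 1, PBS 3, PFF 1 or PFF 2 (0.32 to 0.41, adjusted p = 0.131 to 0.206 in edgeR), and with upper-quartile scaling, the stricter count filter or limma-voom (0.41 to 0.42, adjusted p = 0.0526 to 0.0550). Nnat, which encodes the neuronal membrane protein neuronatin, stood at 296 ± 6.96 and 245 ± 19.2 CPM (adjusted p = 0.0512 in edgeR), and passed in 8 alternatives, DESeq2 (0.0322) among them. The growth inhibitor gene Cdkn1c stood at 1.93 ± 0.516 and 0.880 ± 0.103 CPM, with 8 to 26 counts per library (−1.13 ± 0.33, adjusted p = 0.0585 in edgeR). Zrsr1 stood at 52.0 ± 1.85 and 62.1 ± 4.59 CPM (0.26 ± 0.08, adjusted p = 0.0867 in edgeR). With the replicate block, Nnat (adjusted p = 0.00833 in edgeR), Cdkn1c (0.0366) and Zrsr1 (0.0219) passed, as they did with replicate 3 as a batch term (0.00726, 0.0311 and 0.0160) and with replicates 1 and 2 only (0.00440, 0.0308 and 0.0111). Cdkn1c also passed with no count filter (adjusted p = 0.0467), and Zrsr1 without PFF 3 (0.0174). The median log2 fold change of the list was −0.02.

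Genes with the profile over the 6 libraries most like that of a member were found by the root-mean-square difference of mean-centred log2 CPM among 11116 others at 5 CPM or more on average. Nearest to Igf1 were Stat6 (0.0878), Evi2a (0.112), Cdk18 (0.120), Rnase4 (0.130) and Arc (0.145), with log2 fold changes from 1.01 to 1.36. Nearest to Igf2 were Fanci (0.0799), Rnaset2a (0.128), Lsm5 (0.143), Rpl34-ps1 (0.145) and Tgfbi (0.146), which like Igf2 did not pass with all libraries. H19 had no neighbour as close, but its own profile deviated more from its mean (root-mean-square 0.954, against 0.580 for Igf1 and 0.393 for Igf2). The distances are not scaled for this and are not compared between genes. Near genes have similar fold changes by the way they were found. The nearest were Bcas1 (0.242), Nkx2-2 (0.339), Bmp7 (0.367), Plxnb3 (0.368) and Gpr17 (0.396), with log2 fold changes from −1.66 to −1.20. Bcas1, Gpr17 and the transcription factor gene Nkx2-2 are known from the oligodendrocyte lineage.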

How the data were processed

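Total RNA of 6 libraries, 3 of vehicle (PBS) and 3 of PFF cultures, was sequenced; per the labels' protocols the library kit keeps strand. Values deposited by the authors are unscaled estimated counts for each gene, 8.69% of them not whole. The mm10 genome, STAR 2.7.9a, Trim Galore 0.6.6 and DESeq2 1.38.3 are named per the submitters' processing notes. The counting tool, strand setting and annotation are not given in the sources here, so reads of overlapping genes may have been shared.

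Groups came from the sample titles (vehicle or PFF; the treatment label of the vehicle samples is PBS), and columns were matched by name. Counts were rounded to whole numbers and analysed with edgeR 4.0.16 and limma 3.58.1 under R 4.3.3. The filterByExpr rule removed 10492 of 24411 genes. The other 13919 were scaled by TMM and compared by a two-sided robust quasi-likelihood F-test of edgeR, the group being the only term, with Benjamini-Hochberg adjustment over all tested genes and a threshold of 0.05. The SE is the log2 fold change divided by the square root of F. CPM are counts per 1000000 counts of tested genes after TMM scaling; 2 was the prior count for log2 CPM. Steps were tested on simulated data. No pair of replicates agreed within sampling noise (chi-square per degree of freedom from 2.79 to 9.66).

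The genes, the lists, the tests and the alternatives were chosen with earlier results of these data known. Named were the 10 members, in the IGF-axis and imprinted lists the called genes and otherwise up to 4 with the smallest p, the tested neighbours within 200000 bases, and the 5 genes most like Igf1, Igf2 and H19, leaving out bare model names. Coordinates and exon lengths (all exons merged) came from GENCODE vM21. Alternatives were other scalings (upper quartile, size factors of DESeq2, none beyond library size), other filters (none, or 50 counts in 3 libraries), other tests (limma-voom, DESeq2 1.42.0, edgeR not robust), a block on the replicate number, replicate 3 as a batch term or left out, Rn45s removed and each library left out.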

Additional observations from a re-analysis of the deposited data

How the results depend on the processing

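Over 18 alternatives, Igf1 stayed higher (1.15 to 1.21) and H19 lower (−2.15 to −1.63), and both passed in each. Igfbp3 stayed lower (−0.56 to −0.41) and passed in 16, all but those without PFF 1 and without PFF 2. Igf2 passed in 2 (without PFF 3, and replicates 1 and 2 only) and Igfbp2 in 2 (the replicate block, and replicate 3 as a batch term). Igf2r, Igf1r, Igfbp4, Igfbp5 and Igfbp7 passed in none, and Igfbp7 could not be fitted with at least 50 counts in 3 libraries. Of the 179 values for the 10 genes, 166 kept their direction and side of the threshold. The sign turned in 7: Igf1r was 0.0057 with scaling by library size only, 0.089 without PBS 3, 0.0021 without PFF 2 and 0.12 with replicates 1 and 2 only; Igfbp4 was 0.067 without PBS 3; and Igfbp7 was −0.18 without PFF 3 and −0.046 with replicates 1 and 2 only. Among the neighbours, Lsp1 was 0.14 without PBS 1. With a library left out in turn, the ranges were −0.11 to 0.089 for Igf1r, −0.34 to 0.067 for Igfbp4, −0.18 to 0.42 for Igfbp7 and −0.30 to 0.14 for Lsp1. The cause was not tested.

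The number of members called was 2 to 4 with each library left out in turn and 4 with the replicate block. Of all genes, 916 changed, against 2394 with replicates 1 and 2 only, 2005 with replicate 3 as a batch term and 412 to 1858 with a library left out. The other IGF-axis genes called numbered 0 to 3 with a library left out. The imprinted genes called, 1 with all libraries, were 2 with the DESeq2 test, 3 with no low-count filter, 0 with at least 50 counts in 3 libraries, 5 with replicates 1 and 2 only, 4 with replicate 3 as a batch term and 0 to 4 with a library left out.

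With a block on the replicate number 1997 of all genes and 4 imprinted genes were called. Same-numbered libraries deviated together only weakly (correlation across genes of 0.092, 0.109 and 0.202 for numbers 1, 2 and 3). PBS 2 correlated best with PFF 1 (0.128), while the other differently numbered pairs had negative correlations (−0.207 to −0.0087). The numbers were not taken to pair the libraries, and whether same-numbered libraries share a source was not tested. Counting error weighs most where counts are few, as for Igfbp7 (23 to 54 per library) and Cdkn1c (8 to 26), and its share of their spread was not tested.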
